A study of Mus musculus with 8 samples.

Results

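Tertiary neurospheres carrying an shRNA against Nr2f1 and Nr2f2 were compared with tertiary neurospheres carrying a control shRNA, 1 array a side. A gene was taken in when at least 1 of its probes was flagged well above background on at least 1 of these 2 arrays, which gave 26440 genes of the 28921 that reached this on any of the series' 8 arrays. All cells derived from EB3, a single line of mouse embryonic stem cells, by way of embryoid bodies treated with Noggin, which blocks BMP signals. The dissociated bodies were plated with lentivirus at a multiplicity of infection of about 25, so every culture of the series, the controls included, carried a vector, and all grew as floating spheres in medium with insulin, transferrin and 20 ng/ml FGF2. The control shRNA was directed at firefly luciferase. Tertiary neurospheres (P2) had been dissociated and regrown at passage number 2 and were collected after 6 days. Primary neurospheres (P0), from the first 6 days after the embryoid bodies, gave the same contrast at passage number 0. A pair of miRNA vectors, a control directed at lacZ and miR-17, was measured at both passages and served here as further tertiary arrays. The labels name a lentiviral shRNA vector but neither its promoter nor its target sequence, and give no word on whether cultures were grown independently. With 1 array a group there was no replicate, so differences are given as log2 values without a test, and 2-fold was the limit for a call.

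Nr2f1 and Nr2f2, also called COUP-TFI and COUP-TFII, are orphan nuclear receptors that bind repeats of the hexamer AGGTCA, mostly as repressors. In the developing brain they pattern the cortex and take part in the change of neural stem cells from making early neurons to making later neurons and then glia. Neurospheres passaged in FGF2 go through such a sequence in culture, with proliferating neurogenic progenitors early and astrocyte and oligodendrocyte genes late. The design therefore asks whether the late state forms when both receptors are reduced.

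Levels are given as scaled intensity, in which the upper quartile of each array is 100, and can be compared for 1 probe across arrays but not between probes. The upper-quartile intensity was 940 on the control and 1061 on the knockdown array, and the share of spots well above background was 64.8% and 67.3%. Over 292 probes printed as 10 spots and bright on both arrays, the median SD of a single-spot difference was 0.10 log2 units, which covers spots and not cultures. The control arrays of the 2 vector systems also differed. At P2 they were at least 2-fold apart in 5264 of 25178 genes (20.9%), a comparison that shares the control shRNA array. The knockdown contrast itself had fewer, 4481 of 26440 (16.9%). The shRNA arrays occupied 1 column of the slide and the miRNA arrays the other, with 1 culture per array. Vector system, slide column and variation between cultures thus cannot be told apart. In bulk RNA, fewer cells of a type and less RNA per cell cannot be told apart either. Of the neural stem and progenitor markers Sox1, Sox2, Nes, Pax6, Msi1 and Fabp7, 6 of 6 were well above background on all 8 arrays. Sox2, which keeps neural progenitors undifferentiated, was at 965 on the control and 984 on the knockdown array, so markers of the labelled cell type were present on both.

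The targeted genes were read first. Nr2f1 was read by a probe on chromosome 13 at 78328723 to 78328782 (mm9), and Nr2f2 by one on chromosome 7 at 77496873 to 77496932. At P2 the Nr2f1 probe was at 2995 on the control shRNA array, 1333 on the knockdown array, 5113 with the control miRNA and 4699 with miR-17. The knockdown array was the lowest of the 4, 55.5% below its control shRNA array, and a second Nr2f1 probe gave 56.8%. Nr2f2 was at 589 with the control shRNA, 316 with the knockdown, 256 with the control miRNA and 347 with miR-17. It was thus 46.3% below the control shRNA array, which is under 2-fold. It was also 0.30 log2 units above the control miRNA array, so the knockdown array was not the lowest tertiary array for Nr2f2. Nr2f6, the third family member, was at 971 and 1277, a difference of 0.40.

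In all, 1991 genes (7.53%) were at least 2-fold higher and 2490 (9.42%) at least 2-fold lower on the knockdown array. The median was 0.07 and the median absolute difference 0.43 log2 units over all genes. Counts within the gene lists below are to be read beside these shares. The lower side reached further: 224 genes were at least 8-fold lower and 82 at least 8-fold higher, and past 16-fold the counts were 80 and 19. On the probe used, 268 of the higher genes were dim on the control array and 350 of the lower genes dim on the knockdown array, and for these the fold is a lower limit, written as "at least", with the dim side set at the higher of its own signal and the lowest signal well above background on that array (1.84 for the knockdown and 2.06 for the control array). Where a called gene had several probes, all reached 2-fold in 320 of 590 higher and 364 of 646 lower genes, and a probe went 2-fold the other way in 4 and 3.

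**Figure D1:**
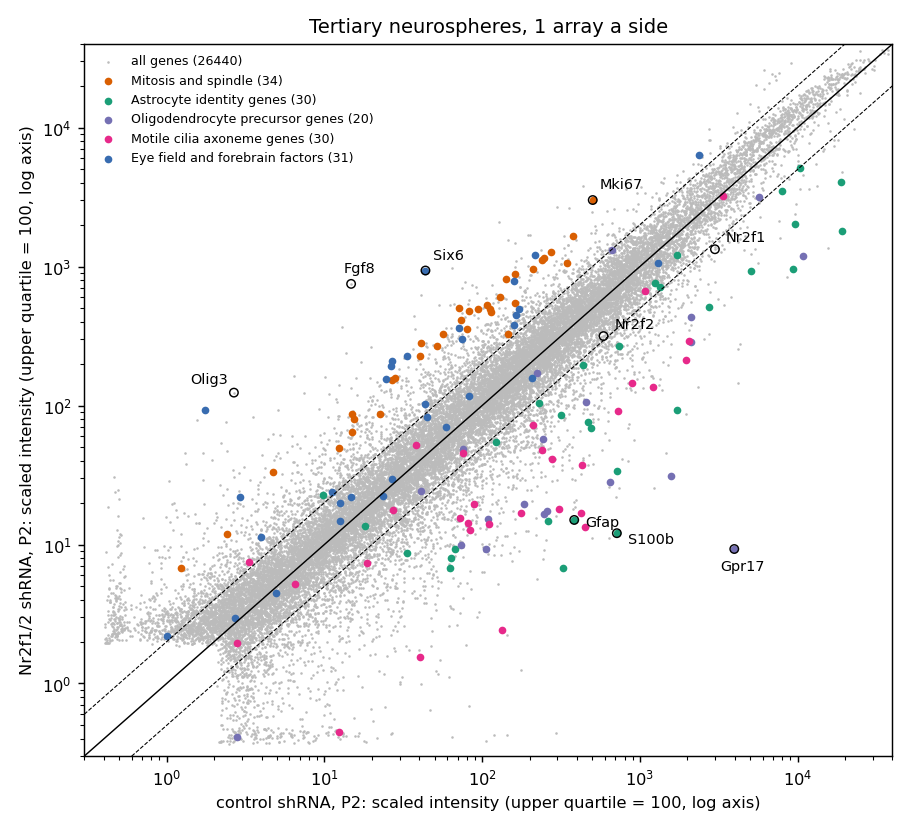
Scaled intensity of each gene on the control shRNA (x) and Nr2f1/2 shRNA (y) arrays at P2, both log axes, measured signals; the solid line marks equal levels and the dashed lines 2-fold. Mitosis genes lie above the band and astrocyte, oligodendrocyte precursor and cilia genes mostly below it, with Gpr17 at 3972 against 9.28; points at the lower left edges are signals not well above background.

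At P0 the same contrast gave fewer calls, and the targets were also reduced less. Nr2f1 was at 7184 on the control and 4140 on the knockdown array, a difference of -0.80, with the control miRNA array lower still at 3376. Nr2f2 was at 1008 and 708, a difference of -0.51, with the control miRNA and miR-17 arrays lower still at 464 and 492. At P0 350 of 24012 genes (1.46%) were at least 2-fold higher and 140 (0.583%) lower, and of the 1845 genes higher at P2 that were measured at P0, 56 were 2-fold higher there as well. For the lower genes this held for 19 of 1930. In the opposite direction, 16 of the higher genes were at least 2-fold lower at P0. Of the lower genes 48 were at least 2-fold higher there. Among the 4 tertiary arrays the knockdown array was also the one set furthest apart: 1422 of 27044 genes (5.26%) were at least 2-fold above and 1413 (5.22%) at least 2-fold below each of the other 3 arrays, against 572 (2.12%) and 69 (0.255%) for the control shRNA array. The control miRNA array had 118 (0.436%) and 228 (0.843%), and the miR-17 array 54 (0.200%) and 18 (0.0666%).

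The cell division genes were higher throughout. Of 34 genes of mitosis and the spindle 34 were at least 2-fold higher on the knockdown array, with a median of 2.29 log2 units and a range of 1.16 to 2.82, and 34 were also 2-fold above each of the other tertiary arrays. Top2a, the topoisomerase that untangles chromosomes, was at 71.4 with the control shRNA, 504 with the knockdown, 26.7 with the control miRNA and 34.3 with miR-17. On the 4 primary arrays it lay between 439 and 656, so the knockdown array at P2 was at a primary level and the other tertiary arrays were not. Mki67, a marker of cycling cells, was at 503, 3014, 120 and 90.6 in the same order at P2 and between 2368 and 3464 at P0. Its difference at P2 was 2.58 log2 units (2.68 on the other probe), and at P0 0.16. Bub1 and Ttk, kinases of the spindle checkpoint, were 6.84-fold and 7.02-fold higher, Aspm, a spindle pole protein, 5.83-fold and Kif11, the motor that pushes spindle poles apart, 5.79-fold.

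Genes of S phase were higher with them. Of 34 DNA replication genes 28 were at least 2-fold higher and none lower (median 1.76, against 0.33 at P0). Tk1, which makes thymidine nucleotides, was at 66.4 on the control and 537 on the knockdown array. Mcm2 and Mcm5, subunits of the replicative helicase, were 4.91-fold and 5.58-fold higher, Pole, the leading-strand polymerase, 5.02-fold, and Gmnn, the licensing inhibitor geminin, 6.88-fold. Of 18 cyclins and E2F factors of G1 and S phase 9 were higher and none lower (median 0.94). These included E2f8, a repressor within the family, at 3.85-fold, Foxm1, the activator of mitotic genes, at 3.51-fold, and Rbl1, a pocket protein that binds E2F factors, at 3.28-fold. E2f7, another repressor, was 6.17-fold higher on the probe used, but its probes spread from 0.29 to 2.63 log2 units. Ccnd1, the cyclin that answers growth factors, was at 400 and 461, a difference of 0.20. It is named here although it was picked after its value was seen.

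The promoters of these genes are shown because the members were higher together. Cell cycle promoters are known for the CHR element TTTGAA beside a CCAAT box in mitotic genes, and for E2F sites in replication genes. Promoter windows from RefSeq (GRCm38.p6), 250 bases before to 50 bases after each start, matched 13384 of the 26440 genes, and each motif was searched on both strands. TTTGAA together with CCAAT was found in 6.02% of all matched genes, 12.2% of the higher genes, 5.65% of the lower genes, and 19 of 29 mitosis genes (65.5%). TTTCCCGC or TTTGGCGC was found in 2.91% of all, 5.66% of the higher, 1.71% of the lower genes, and 10 of 28 replication genes (35.7%). Of the replication genes 9 of 10 holders and 14 of 18 others were higher, and of the mitosis genes all 29 were. These shares describe letters in the windows. In each stretch below the motifs of its set are in capitals, here TTTGAA and CCAAT or their reverse complements TTCAAA and ATTGG, and each stretch ends at the base before the start. For mitosis genes, all 3 higher on the knockdown array:
Top2a, chr11:99024190-99024309, minus strand: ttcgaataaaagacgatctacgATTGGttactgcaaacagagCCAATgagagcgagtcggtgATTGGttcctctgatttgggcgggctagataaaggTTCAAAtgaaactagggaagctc
Kif11, chr19:37376262-37376381, plus strand: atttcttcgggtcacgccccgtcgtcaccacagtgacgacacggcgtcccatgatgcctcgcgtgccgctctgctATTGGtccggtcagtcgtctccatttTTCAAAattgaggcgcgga
Cdk1, chr10:69352913-69353032, minus strand: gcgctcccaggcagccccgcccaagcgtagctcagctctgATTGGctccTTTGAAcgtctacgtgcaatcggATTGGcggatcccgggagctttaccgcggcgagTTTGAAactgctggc
For replication genes, with GCGGGAAA the reverse complement of TTTCCCGC:
Cdc6, chr11:98908001-98908150, plus strand: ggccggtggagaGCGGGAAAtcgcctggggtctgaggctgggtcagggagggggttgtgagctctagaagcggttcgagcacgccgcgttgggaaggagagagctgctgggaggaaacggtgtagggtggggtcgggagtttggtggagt
Mcm6, chr1:128359706-128359825, minus strand: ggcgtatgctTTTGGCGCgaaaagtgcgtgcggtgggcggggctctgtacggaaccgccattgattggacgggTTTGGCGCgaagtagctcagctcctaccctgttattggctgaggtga
Cdk1, the kinase that drives entry into mitosis, was at 40.4 on the control and 228 on the knockdown array, Cdc6, which loads the helicase, at 10.9 and 40.6, and Mcm6, a helicase subunit, at 686 and 2616. These genes were picked after their values were seen, from list members that hold the motif.

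Histone genes, which are copied in S phase, were mixed: of 25 measured 15 were higher and 5 lower (median 1.57). H3c1 was at 6.43 on the control and 164 on the knockdown array, and H3c11 and H1f1 were 11.3-fold and 9.40-fold higher. H2ac8 was lower, from 20.4 to a signal of 2.09 that was not well above background, a fold of at least 9.75. Histone paralogues are nearly identical and probes may cross-hybridise, so single members are uncertain. The CDK inhibitors did not share 1 direction (1 of 7 higher, 2 lower). Cdkn2b, at 29.3 on the control, 4.14 on the knockdown, 267 on the control miRNA and 157 on the miR-17 array, and Cdkn2a, at 44.0, 20.1, 669 and 359, were lowest on the knockdown array. Cdkn1c, an imprinted inhibitor, was the one higher, at 1880 and 4872.

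Of 562 genes with symbols of transcription factor families 88 (15.7%) were at least 2-fold higher and 55 (9.79%) lower. The shares of all genes were 7.53% and 9.42%. The symbols also took in some enzymes, among them Ids, which counts as lower, and Ide, Idh1, Idh2, Idi1 and Ido2. Olig3, a factor of dorsal progenitors, was at 2.67 on the control array, not well above background, and 124 on the knockdown array, at least 46.4-fold higher. It was dim on the 3 other tertiary arrays and between 106 and 127 on the 4 primary arrays. Nkx2-1, which specifies ventral forebrain, was at 1.76, again dim, and 93.5, at least 45.5-fold higher, and no primary array passed 10.8. Lhx8, a cholinergic neuron factor, was dim on the 3 other tertiary arrays and at 76.5 on the knockdown array, at least 32.2-fold above the control. Isl1, a LIM homeobox factor of motor and other neurons, was at 12.9 and 369 (28.7-fold; SE over 10 spots 0.04 log2 units). Olig3 was thus at its primary level on the knockdown array, while Nkx2-1, Lhx8 and Isl1 stood above all 7 other arrays.

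**Figure D2:**
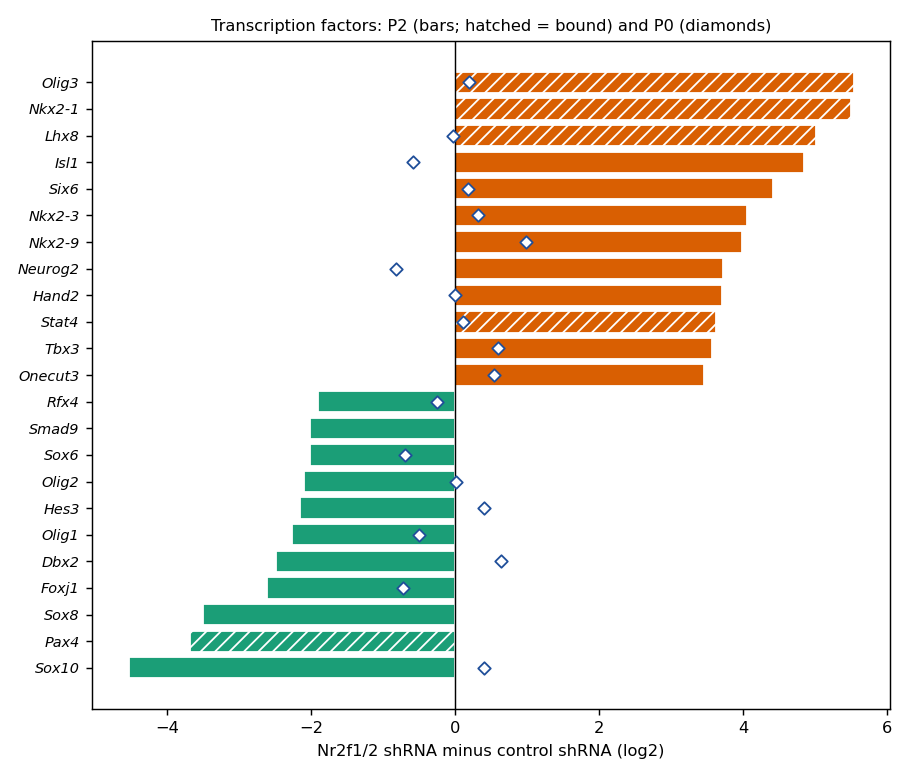
The 12 highest and 11 of the 12 lowest transcription factors: bars, log2 difference of the Nr2f1/2 shRNA from the control shRNA array at P2 (hatched where the dim side gives a bound); diamonds, the difference at P0 where measured. The P2 bars run from 5.54 for Olig3 to -4.54 for Sox10, and every P0 diamond lies within 1 log2 unit of 0.

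Among the eye field and forebrain factors 18 of 31 were at least 2-fold higher and none lower (median 1.26, against -0.01 over 29 at P0). At P0 1 of the 29 was at least 2-fold higher and 5 lower, beside 1.46% and 0.583% of all genes. Six6, an eye field factor, was at 43.7 with the control shRNA, 937 with the knockdown, 97.0 with the control miRNA and 127 with miR-17, and between 6.11 and 101 at P0. Fezf2 and Fezf1, zinc-finger factors of the anterior forebrain, were 7.84-fold and 6.85-fold higher, Vax1 7.24-fold and Gsx2, a factor of the ventral telencephalon, 7.54-fold. Bcl11b and Bcl11a, known partners of the COUP-TFs, were 6.25-fold and 2.93-fold higher. Of 18 midbrain and hindbrain genes 4 were higher and 3 lower, beside 7.53% and 9.42% of all genes. Fgf8, the signal of the midbrain-hindbrain and anterior organisers, was among the highest genes, at 14.8 and 751, and no other array passed 161. At P0 it was also higher, at 32.6 and 81.5. Its probes spread widely, the 3 lying between 0.28 and 6.33 log2 units. Irx1 and En2 were 3.41-fold and 2.45-fold lower. En2 was at 973 on the control shRNA and 397 on the knockdown array, with the control miRNA and miR-17 arrays at 559 and 687. Hox genes of the trunk were not higher: of 20 measured, partner genes Meis and Pbx included, 0 were higher and 4 lower, and 11 of the 20 were measured at P0. The list lay near background, with median levels of 4.53 on the control and 3.46 on the knockdown array. The 4 lower were Meis2 and, as bounds, Hoxc6, Hoxc9 and Hoxa2.

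Of 29 proneural and neurogenesis genes 8 were higher, 1 lower and 20 in neither class (median 0.71). Neurog2, a proneural bHLH factor, was at 4.72 and 62.3, against 176 to 589 on the primary arrays. The Onecut factors, which mark early-born neurons, were higher together: Onecut2 at 145 and 1548, Onecut1 at 74.7 and 702, and Onecut3 at 4.03 and 44.4. Onecut2 and Onecut1 passed every primary array, the highest of which were at 672 and 602. Genes of mature neurons did not share this. Of 25 neuronal cytoskeleton and RNA-binding genes 1 was higher and 2 lower (median -0.37), near the 7.53% and 9.42% of all genes. Of 25 synaptic vesicle genes 0 were higher and 7 lower (median -0.54). Tubb3, a neuronal tubulin, was at 1783 and 1854, and Dcx, of migrating neurons, at 678 and 793. The direction of these neuronal lists depends on the control: against the control miRNA array, where Tubb3 was at 454 and Dcx at 106, the same medians were 1.04 and 0.27.

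Neuron subtype selectors split evenly, with 6 of 30 higher and 6 lower, though against the control miRNA array 10 were higher and 3 lower. Tal2, a factor of midbrain GABA neurons, and Lhx5 were 5.21-fold and 4.33-fold higher. Of 25 dorsoventral progenitor factors, a list that also holds Foxj1, 8 were higher and 3 lower, Foxj1 among the lower. Beside Olig3, Dbx1 and Nkx2-9 were 6.45-fold and 15.9-fold higher, while Dbx2 was 5.62-fold lower. Of 14 genes of the Lin28 and Igf2bp group, known for high levels in young progenitors, 4 were higher and none lower (median 0.41, and 0.37 at P0). Igf2bp1 was at 46.0 and 167 and Hmga2 at 46.3 and 133, and no miRNA array at P2 passed 7.28 for either. Lin28a, at 105 and 53.3, went the other way, with a difference of -0.98.

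Astrocyte genes were lower almost throughout. Of 30 astrocyte identity genes 25 were at least 2-fold lower and 1, Chrdl1, was higher, with a median of -2.33 against -0.06 over the 25 members measured at P0. Their median level with the control shRNA was 104.5 at P0 and 602 at P2. Gfap, the astrocyte filament, was at 384 with the control shRNA, 15 with the knockdown, 7655 with the control miRNA and 8733 with miR-17. The knockdown array was the lowest of the 4, though its control was itself far below the miRNA arrays. S100b, a calcium-binding protein, was at 715, 12.1, 3284 and 2494 in the same order, Aqp4, the water channel, at 717, 33.9, 6077 and 4885, and Aldh1l1, a folate enzyme, at 2746, 514, 7733 and 4798. In each the knockdown array was lowest and the control shRNA array second lowest, and 22 of the 30 were at least 2-fold below each of the other 3 tertiary arrays. The neurotensin receptor Ntsr2 was 47.9-fold, the nucleotidase Entpd2 18.4-fold and the potassium channel Kcnj16 17.6-fold lower. Slc1a2, the main glutamate transporter of astrocytes, was 2.23-fold lower.

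The repeats that COUP-TFs bind were looked for in the same promoter windows. A direct repeat of AGGTCA with 1 base between, known as DR1, was found in 6 of 13384 genes, none of them called. The single hexamer AGGTCA was found in 15.5% of all matched genes, 14.3% of the higher and 16.1% of the lower genes, in 8 of 25 astrocyte genes (32.0%) and in 1 of 12 oligodendrocyte precursor genes. Of the astrocyte genes 7 of 8 holders and 14 of 17 others were lower. Gfap, picked after its value was seen, is shown as an astrocyte gene that holds the hexamer, as TGACCT on the other strand:
Gfap, chr11:102897201-102897320, minus strand: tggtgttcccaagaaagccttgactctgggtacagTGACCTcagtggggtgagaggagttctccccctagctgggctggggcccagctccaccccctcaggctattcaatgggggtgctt

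Genes of the oligodendrocyte lineage were lower as well. Of 20 precursor genes 14 were lower and none higher (median -2.86, against 0.12 over the 16 measured at P0), and 14 were 2-fold below each of the other tertiary arrays. The list's median level with the control shRNA was 20.3 at P0 and 252 at P2. The P0 contrast thus had less room to show a lower value. Gpr17, a receptor of committed precursors, was at 3972 with the control shRNA, 9.28 with the knockdown, 5825 with the control miRNA and 7760 with miR-17, a 428-fold difference, and was dim on all 4 primary arrays. Sox10, the lineage's master regulator, was at 652, 28.0, 1069 and 1264, and its primary values ran from 16.5 to 21.7. Bcas1, of early myelinating cells, was at 1581 and 31.2 and Omg, a myelin glycoprotein, 14.9-fold lower. Olig2 and Olig1, bHLH factors of the lineage, were 4.30-fold and 4.83-fold lower, and Pdgfra, the growth factor receptor of precursors, 4.24-fold. Cspg4, the proteoglycan NG2, was at 40.7 and 24.1, which is under 2-fold. On the knockdown array Sox10 was thus near its primary level, and Gpr17 somewhat above it. Olig1 was not at its primary level: with the knockdown it was at 56.0 at P0 and 436 at P2.

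Myelin genes followed, with 12 of 20 lower and none higher (median -1.43). Fa2h, which makes the hydroxylated lipids of myelin, was at 177 on the control and dim on the knockdown array, at least 96.1-fold lower. Mag, an adhesion protein of myelin, was at 218, 11.8, 3759 and 5242 on the 4 tertiary arrays in the order used above. Enpp6, a lipid enzyme of new oligodendrocytes, was at least 35.1-fold lower (-2.86 on its other probe), and Cnp, a myelin enzyme, was 11.6-fold lower. Mog, at 33.9 and 31.9, did not pass 2-fold. Mbp, myelin basic protein, had no settled direction: the probe used gave 354 and 573, but its 3 probes spread from -5.26 to 0.69 log2 units. The factors that drive gliogenesis were divided: 7 of 20 were lower and none higher (median -0.59). Besides Sox10 and the Olig genes, Sox8 was 11.4-fold, Nfix, a nuclear factor I gene, 3.62-fold and Sox9 2.74-fold lower. Nfia and Nfib, chosen for mention after their values were seen, differed by -0.75 and -0.49.

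**Figure D3:**
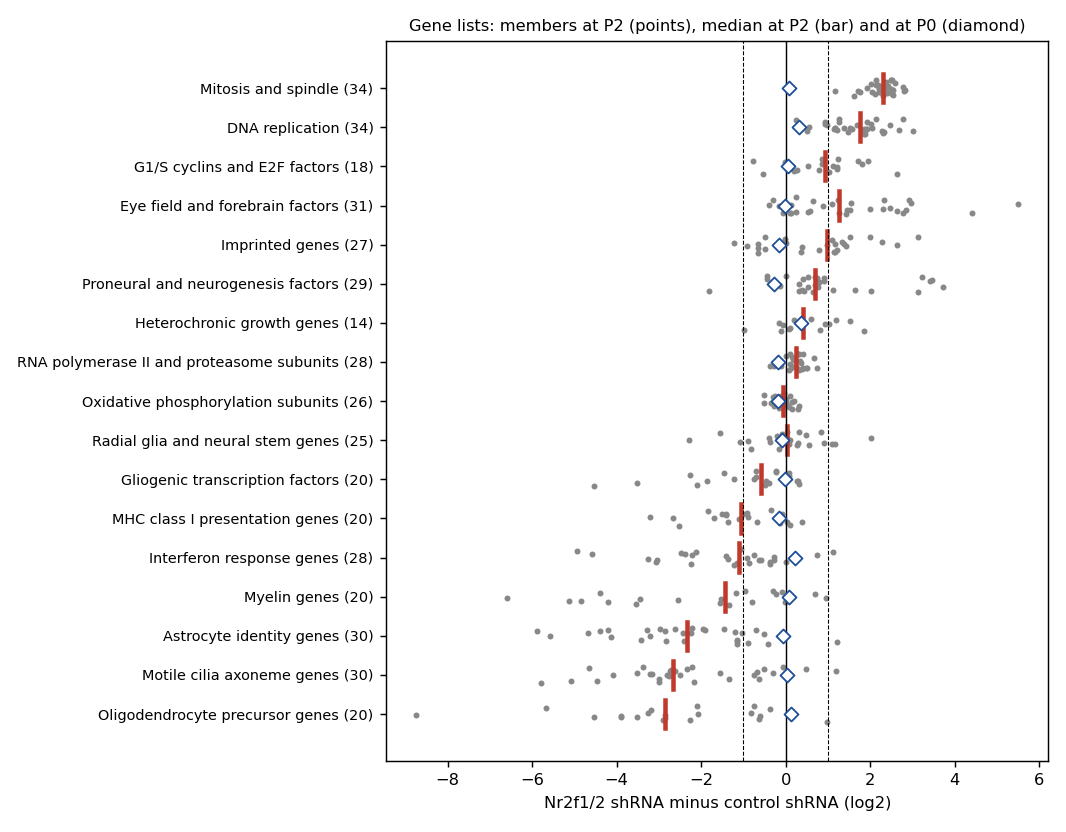
Log2 difference between the Nr2f1/2 shRNA and control shRNA arrays for the members of 17 gene lists (points, P2), with the list median at P2 (bar) and at P0 (diamond); dashed lines mark 2-fold and the number measured at P2 stands in brackets. Medians at P2 run from 2.29 for mitosis to -2.86 for oligodendrocyte precursor genes, while the P0 medians lie between -0.28 and 0.37. Precursor, myelin, cilia and interferon genes were at low levels on the control shRNA array at P0.

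Of 25 radial glia and neural stem genes 3 were higher, 3 lower and 19 in neither class, with a median of 0.04. These counts lie near the background of 7.53% and 9.42%. Nes, the progenitor filament, was at 527 and 649, Pax6 at 47.1 and 48.5, and Msi1 at 82.8 and 74.1, though the other Msi1 probe gave 1.15 log2 units. Prom1, a protein of apical membranes and cilia, was 4.85-fold lower, Fabp7, a fatty acid carrier of radial glia, 2.10-fold lower, and Dach1 4.06-fold higher. Subunits of oxidative phosphorylation (26 genes) and of RNA polymerase II and the proteasome (28 genes) held no member past 2-fold, with medians of -0.07 and 0.24.

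Genes of motile cilia formed a further group that was lower. Motile cilia are the beating cilia of ependymal cells, built on dynein arms and radial spokes under the factors Foxj1 and Rfx. Of 30 measured genes 22 were lower and 1, Dnah1, higher (median -2.67, against 0.02 over 24 measured at P0). Their median level with the control shRNA was 16.8 at P0 and 154 at P2, so P0 had less room to show a lower value. Dnah6, a dynein heavy chain, was at 450 with the control shRNA, 13.3 with the knockdown, 101 with the control miRNA and 120 with miR-17. Here the control shRNA array was the highest of the 4 and the knockdown array the lowest. Cfap65 and Cfap52, axonemal proteins, were 55.3-fold and 25.1-fold lower. Outside the list, Meig1, known from sperm development, and Fam216b were 34.5-fold and 43.1-fold lower. Foxj1 itself was at 895, 146, 593 and 590, while Mcidas, upstream of it, was at 3366 and 3224. Of the 22 lower genes 17 were 2-fold below each of the other 3 arrays.

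The half-site of Rfx factors, GTTGCC, was searched in the promoters after these genes had been seen. It was found in 14.7% of all matched genes, 17.2% of the lower genes and 12 of 26 cilia genes (46.2%). The 4 stretches shown, from lower genes picked after their values were seen, hold it or its reverse complement GGCAAC close to the start:
Tekt1, chr11:72361883-72362002, minus strand: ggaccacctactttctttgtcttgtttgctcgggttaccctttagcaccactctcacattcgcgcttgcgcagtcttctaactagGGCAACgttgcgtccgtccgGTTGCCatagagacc
Hydin, chr8:110266857-110266976, plus strand: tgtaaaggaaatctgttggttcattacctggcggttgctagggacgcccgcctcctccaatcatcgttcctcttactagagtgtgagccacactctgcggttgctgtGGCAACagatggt
Drc1, chr5:30281273-30281392, plus strand: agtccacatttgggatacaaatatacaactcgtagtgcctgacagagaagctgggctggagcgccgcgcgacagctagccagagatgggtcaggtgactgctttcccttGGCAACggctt
Lrrc23, chr6:124779728-124779847, minus strand: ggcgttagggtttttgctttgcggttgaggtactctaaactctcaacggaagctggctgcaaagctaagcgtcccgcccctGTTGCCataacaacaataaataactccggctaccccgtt
Tekt1, of the axonemal wall, was at 732 on the control and 92.0 on the knockdown array, Hydin, of the central pair, at 81.7 and 14.3, Drc1, of the dynein regulatory complex, at 2051 and 292, and Lrrc23, of radial spokes, at 240 and 47.6. Holding the half-site did not go with being lower among the cilia genes: 6 of the 12 holders and 12 of the 14 others were at least 2-fold lower. Holders that were not, named after their values were seen, were Rfx2 at -0.62, Rfx3 at -0.74, Spag6 at -0.52, Spag16 at -0.30, Mcidas at -0.06 and Tekt2 at 0.47, while Dnah6 and Cfap52, at -5.08 and -4.65, hold none in this window.

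Lists of secreted signals and their receptors held members in both directions, to be read beside 7.53% higher and 9.42% lower of all genes. Of 25 genes on the FGF list 6 were higher, Igfbpl1 among them, and 3 lower (median 0.41). With Fgf8, Fgf15 was at 40.8 on the control and 625 on the knockdown array, and Fgf18 was 4.36-fold higher. Against the control miRNA array Fgf18 was under 2-fold higher, at 325 beside 195. Spry1, a feedback inhibitor induced by FGF signalling, was at 355 and 2643, and Igfbpl1, related to the insulin-like growth factor binding proteins, at 128 and 2095. Among 36 Wnt genes 11 were higher and 7 lower: Dkk1, a secreted antagonist, 8.71-fold higher, Sp5, a target gene, 9.45-fold higher, and Fzd8, a receptor, 5.65-fold higher, while Sfrp5, another antagonist, was 20.3-fold and the ligand Wnt7b 4.71-fold lower. Of 34 BMP and TGF-beta genes 3 were higher and 6 lower, among them Gdf10 at 15.8-fold, Bmp6 at least 7.14-fold, Bmp4 at 4.62-fold and the receptor Bmpr1b at 3.08-fold lower. Gdf10 was at 100.0 on the control shRNA array, 6.34 on the knockdown, 15.7 on the control miRNA and, dim, 2.79 on the miR-17 array, so there the control shRNA array stood apart. Of 19 Hedgehog genes 4 were higher and 1 lower. Gli1, the pathway's target, was at 297 and 828, though its other probe gave 0.66 log2 units, under 2-fold. Of 27 Notch genes 3 were higher and 2 lower, counts near these shares of all genes. Mfng, a sugar transferase that tunes Notch receptors, was at 194 and 1690, Hes3 was 4.45-fold lower than its 47.5 on the control shRNA array, but the miRNA arrays were at 13.4 and 13.5, so again the control shRNA array stood apart. Hes5, the main Notch target in progenitors, named after its value was seen, was at 4384 and 4626.

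The cytokine pathway that turns on astrocyte genes had 4 of 23 members lower and none higher (median -0.40), beside 9.42% and 7.53% of all genes. Among the 4 were 3 receptor subunits: Osmr 9.96-fold, Il6st, the shared chain gp130, 6.34-fold and Lifr 2.06-fold lower. Lifr had 3 probes, the highest at 0.04. Interferon response genes were lower in 15 of 28 and higher in 1 (median -1.10, against 0.22 over 21 at P0). Their median level with the control shRNA was 5.28 at P0, near background, and 43.5 at P2. Ifit3 was at 92.4, 3.0, 292 and 132 on the control shRNA, knockdown, control miRNA and miR-17 arrays, and its probe may also read a close paralogue. Gbp2 and Gbp3, GTPases of cell defence, were 23.9-fold and 8.30-fold and Xaf1 9.63-fold lower. MHC class I genes were lower in 11 of 20 and higher in none (median -1.05), with the peptide transporter Tap2 9.23-fold and its partner Tapbp 3.58-fold lower. Complement and acute phase genes, a list that also holds Gfap, were lower in 9 of 21 and higher in 1. C4b was at 642 and 56.9 and Serpina3n, of reactive astrocytes, at 374 and 29.4.

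Several lists of extracellular matrix and membrane genes had more lower than higher members, with under 1 in 2 past 2-fold in each. Of 19 lecticans, link proteins and tenascins 7 were lower and none higher. Bcan, brevican, was at 10885 and 1192, and Tnr, tenascin-R, 11.5-fold lower. Of 35 collagen and laminin genes 14 were lower and 3 higher, with Nid1, a basement membrane linker, 6.43-fold lower and Col18a1 5.65-fold higher. Of 34 potassium channel subunits 11 were lower and 2 higher, among them Kcnj16 and Kcnj10, the potassium buffer of astrocytes, 17.6-fold and 6.15-fold lower. Of 41 receptors and transporters of glutamate, GABA and glycine 16 were lower and 2 higher (median -0.76), among them the glutamate transporter Slc1a1 and the GABA transporter Slc6a11, 4.0-fold and 3.42-fold lower. These directions depend on the control. Against the control miRNA array the medians went from -0.76 to 0.75 for the receptors and transporters, from -0.55 to 0.02 for potassium channels (8 higher, 10 lower) and from -0.81 to -0.10 for collagens and laminins (9 higher, 11 lower). Among 40 axon guidance genes 9 were higher, led by Robo3, the receptor of commissural axons, at 15.9 and 158, and 5 lower, led by Plxnb3, at 496 and 11.

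Of 27 imprinted genes measured 13 were higher and 1 lower (median 0.98, against -0.15 at P0). Dlk1, a Notch-like growth regulator, was at 439 with the control shRNA, 3831 with the knockdown, 474 with the control miRNA and 917 with miR-17, and the lowest primary array was at 2902. The knockdown array was again at the primary level. Peg12 and Magel2, of the Prader-Willi region, were 4.84-fold and 3.97-fold, and Mest and Grb10 2.87-fold and 2.68-fold higher. Plagl1, a zinc-finger regulator of such genes, was 6.24-fold higher, though the lowest of its 4 probes gave -0.05. Of 29 genes of DNA methylation and Polycomb 6 were higher and 1 lower, beside 7.53% and 9.42% of all genes. Among the 6 were Cbx2 and Ezh2, Polycomb subunits, 4.52-fold and 3.53-fold, and Uhrf1, which recruits the maintenance methyltransferase, 4.34-fold higher.

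Markers of other cell types were read for what else the cultures held. The 6 stem and progenitor markers summed to a scaled intensity of 19363 on the control and 10852 on the knockdown array, most of it Fabp7. The 5 astrocyte markers summed to 4684 on the control and 630 on the knockdown array, the 5 precursor markers to 5366 and 225, and the 4 oligodendrocyte markers to 4593 and 750, with Myrf dim on the knockdown array. On the 4 primary arrays the same sums ran from 115 to 314, from 186 to 217 and from 451 to 645. The 4 neuron markers summed to 6723 and 5403. Pluripotency markers were at 119 and 122, with Zfp42 dim on the knockdown array. The endoderm and mesoderm markers Mixl1 and Afp and the crest marker Foxd3 were dim on both, and T, a mesoderm factor, was at 71.9 and 5.24, with the miRNA arrays at 8.81 and 3.93. Of 18 surface ectoderm and choroid plexus genes 6 were higher and 4 lower, with the epithelial genes Epcam, at 2.88 and 32.6, and Cldn3, at 5.23 and 61.6, above the other 3 tertiary arrays and Krt8, at 131 and 14.3, lower. On the miRNA arrays Krt8 was at 18.8 and 8.93. Of 15 endothelial, blood and microglial genes 1 was higher and 4 lower, beside 7.53% and 9.42% of all genes. The leukocyte marker Ptprc was dim on the control and at 2.11 on the knockdown array. What part these cell types have in the gene differences was not tested.

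**Figure D4:**
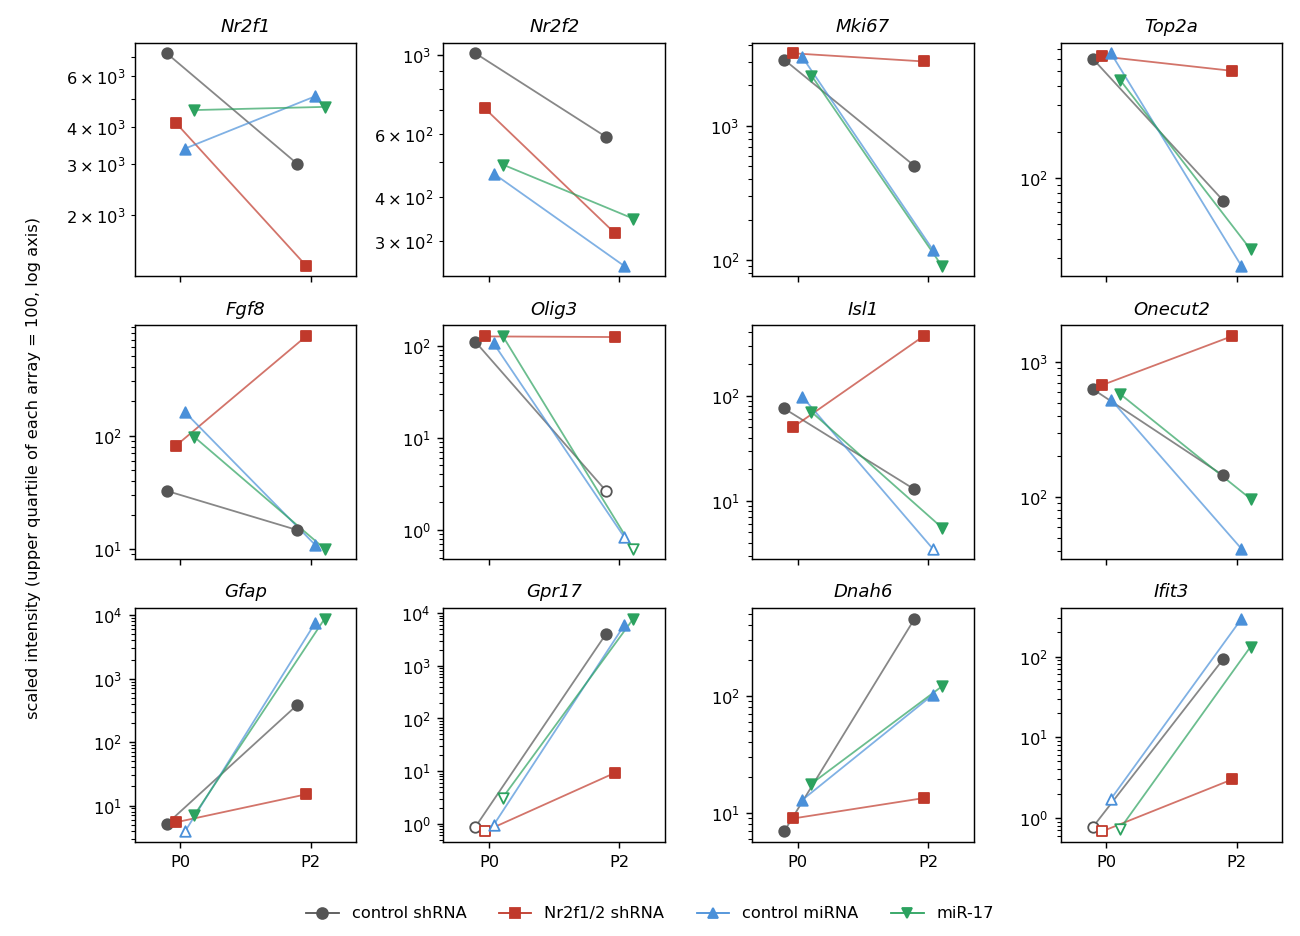
Scaled intensity (log axis) of 12 genes on all 8 arrays, by passage and vector, 1 array a point, lines joining the arrays of 1 vector; open symbols are probes not well above background. For Mki67, Top2a and Olig3 the knockdown array at P2 lies at the level of the P0 arrays, and for Gfap, Gpr17, Dnah6 and Ifit3 it is the lowest of the tertiary arrays.

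The values above place many genes of the knockdown array near their primary level, and this was read across all genes. From P0 to P2, 6045 of 25219 genes (24%) differed by at least 2-fold on the control shRNA arrays, 9782 of 24813 (39.4%) on the control miRNA arrays and 2880 of 25795 (11.2%) on the Nr2f1/2 shRNA arrays. The first and last of these use the arrays of the knockdown contrast and are given side by side. The control miRNA arrays share none with it. Not all lists stayed at a primary level with the knockdown. From P0 to P2 on its arrays, 16 of 30 astrocyte, 10 of 19 precursor and 10 of 19 gliogenic genes rose at least 2-fold. In these lists 0, 2 and 0 fell. Of the Lin28 and Igf2bp group 10 of 14 fell and 0 rose, and of the proneural genes 13 of 29 fell and 2 rose. Of all 25795 genes 1371 rose and 1509 fell. Across 24813 genes the knockdown difference at P2 and the passage difference of the control miRNA arrays had a Pearson correlation of -0.61 and a Spearman correlation of -0.57. With the miR-17 arrays the Pearson value was -0.54 over 25378 genes. Genes are not independent replicates, and all arrays lay on 1 slide. Of 671 genes at least 8-fold higher at P2 than at P0 on the control miRNA arrays, 79.7% were at least 2-fold lower on the knockdown array (median -1.85), beside 9.42% of all genes. Of 900 genes at least 8-fold lower at P2, 41.7% were higher on the knockdown array (median 0.73), beside 7.53%. Among 15031 genes under 2-fold with passage, 3.94% were lower and 2.72% higher.

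**Figure D5:**
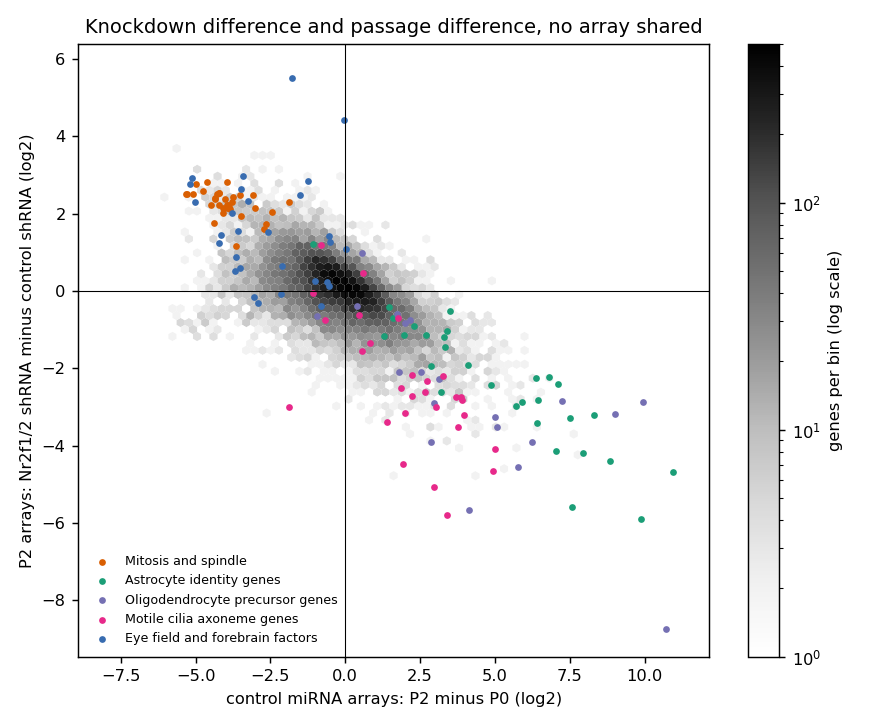
Each gene's P2 minus P0 difference on the control miRNA arrays (x, log2) against its knockdown minus control shRNA difference at P2 (y, log2), with shading for the number of genes per bin on a log scale and 5 lists in colour. The cloud runs from upper left to lower right (Pearson -0.61 over 24813 genes), with mitosis genes at the upper left and astrocyte and precursor genes at the lower right.

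These lists had medians of the same sign when the knockdown array was set against the control miRNA array at P2 instead, a comparison that shares the knockdown array. The medians were then 3.31 for mitosis, 1.74 for replication, 2.34 for forebrain, 1.99 for proneural and 1.71 for imprinted genes, and -3.70 for astrocyte, -3.51 for precursor, -4.55 for myelin, -1.49 for cilia, -1.41 for interferon and -1.06 for MHC class I genes. Of the 1991 higher genes 1527 were also at least 2-fold above the control miRNA array and 17 at least 2-fold below it, beside 15.8% and 16.2% of all 25916 genes measured there. Of the 2490 lower genes 1540 were also below it and 96 above. Tcaf3 and Eras, at least 64.7-fold and 41.4-fold lower, were bright on the control shRNA array at P2 and dim on both miRNA arrays, so these 2 of the 15 lowest genes set the control array apart rather than the knockdown array.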

How the data were processed

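RNA from 8 cultures, 50 ng each labelled with Cy3, was hybridised to 8 one-colour Agilent arrays of 1 slide. Per the file headers, the deposited intensity of each spot was extracted with Feature Extraction 10.7.3.1, with background subtracted. The authors' deposited table of signal values holds the same intensity on a linear scale, each array divided by its own constant (481 to 949), whose choice was not stated.

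From these, outlier spots (1104 over the 8 arrays) and control spots were left out, spots of a probe were averaged, log2 was taken and the log2 upper quartile of each array subtracted. Of a gene's probes well above background on at least 1 of the 2 arrays, the one with the highest mean over the 8 arrays was used. Names came from accessions through RefSeq (GRCm38.p6) for 26425 probes, and 29256 kept the array's name. Named genes were Nr2f1, Nr2f2 and Nr2f6, the 15 highest and 15 lowest, the 12 set furthest apart each way, the 12 highest and 12 lowest transcription factors, the members of each list that differed most, 6 at most, and cell type markers. Some genes picked in these ways are not reported here. The members and lists were chosen with earlier results of these data known. No test was made, since each side is 1 array, and with no replicates the number of arrays limits the precision. R 4.3.3, limma 3.58.1 (normexp and quantile alternatives), Python 3.11.15, numpy 2.4.6 and pandas 2.3.3 were used, and the scripts were tested on simulated data. Alternatives were other scalings, background correction, filters, probe summaries, the deposited table, the control miRNA array as control and a 3-fold limit.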

Additional observations from a re-analysis of the deposited data

Results flagged for a closer look

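Among the genes picked for naming, a pair differed by at least 2-fold in opposite directions at the 2 passages. Over all genes, 16 of those higher and 48 of those lower at P2 were at least 2-fold the other way at P0. Bcas1, of early myelinating oligodendrocytes, had a knockdown minus control difference of -5.66 log2 units at P2 and 1.04 at P0. Cldn5, a tight junction protein of endothelial cells, had -1.86 at P2 and 1.37 at P0. With 1 array per group and passage, neither difference between passages was tested.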

How the results depend on the processing

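No paired analysis was possible because each group has 1 array, and for the same reason no array could be left out. The count of 1991 higher genes became 1262 with normexp background correction, 3325 with no filter, 4095 with the control miRNA array as control and 730 at a 3-fold limit. The 2490 lower genes became 4455 with the control miRNA array and 1144 at 3-fold. Of the genes called against the control shRNA array, 1527 higher and 1540 lower ones were shared with those called against the control miRNA array. Nr2f1 went from -1.17 to -1.33 with quantile normalization and -1.94 against the control miRNA array. Nr2f2 went from -0.90 to 0.30 against the control miRNA array. Other counts stayed within 1.5 times. Of 49 list medians 42 moved by more than 0.10 log2 units against the control miRNA array and 18 with normexp. No median of at least 2-fold reversed. Smaller medians could change sign: against the control miRNA array neuron subtype selectors went from -0.22 to 0.46 and Hedgehog genes from 0.37 to -0.06. Signals near background limit the folds written as at least.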
